A study of Mus musculus with 18 samples.

Results

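The genes described here are cell cycle and DNA replication genes, chosen by name from what their products are known to do. Earlier results of these data were known when they were chosen. The list held 55 symbols, and 54 of them were found among the 20298 genes of the expression table, the exception being Pola1, which was not analysed here. They were split by role into 18 genes of DNA replication, 6 genes of the G1 cyclins and their kinase Cdk2, 25 genes of G2 and mitosis and 5 transcription factors of the cycle.

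Expression was measured by RNA-seq in monocytes of C57BL/6 mice and given as RPKM, the number of reads on a gene scaled by its length and by the mapped reads of the library. WT monocytes were compared with DKI monocytes, which come from mice carrying knocked-in N-domain mutations in both Stat5a and Stat5b, so that STAT5 dimers form and tetramers do not. The mutations are in every cell of these mice. Cells labelled Ly6C+ CCR2+ monocytes were sampled untreated (day 0) and after culture for 3 or 6 days in GM-CSF at 20 ng/mL, giving 6 groups of 3 libraries. GM-CSF drives monocytes towards monocyte-derived dendritic cells or macrophages (MDCs). The tissue is given as liver in the labels, although the study describes enrichment from bone marrow by negative selection. Animal age was not given in the sources used here.

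The cell cycle is driven by cyclins, which are made and destroyed in turn, and by the kinases they switch on. D-type cyclins are made in response to growth factors and, with Cdk4 and Cdk6, start to release E2F transcription factors from the retinoblastoma protein. E2F factors then switch on the genes of DNA replication, and a later wave under B-MYB and FOXM1 switches on the genes of mitosis. STAT5 is phosphorylated downstream of the GM-CSF receptor, and bone marrow monocytes are a young population close to dividing progenitors.

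Both waves have known promoter elements, so promoters are printed here of the members with the highest day 0 means among those that hold such an element upstream of every annotated transcript of the gene. Members with a match only inside a transcript, such as Mcm3 and Ube2c, were left out by this rule. They were read from RefSeq promoter sequences of build GRCm38.p6, which had entries for 41 of the 54 genes. Each runs 5′ to 3′ from 160 bases before the listed start and stops short of any annotated transcript of the gene. Capitals mark matches on either strand, in the first 2 to an E2F-like motif (TTTCCCGC, TTTCGCGC, TTTGCCGC or TTTGGCGC).
Mcm6, chr1:128359706-128359865, minus strand: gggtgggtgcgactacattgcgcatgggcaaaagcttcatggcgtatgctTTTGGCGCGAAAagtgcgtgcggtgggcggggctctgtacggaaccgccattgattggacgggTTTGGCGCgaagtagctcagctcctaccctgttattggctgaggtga
Mcm5, chr8:75109349-75109467, plus strand: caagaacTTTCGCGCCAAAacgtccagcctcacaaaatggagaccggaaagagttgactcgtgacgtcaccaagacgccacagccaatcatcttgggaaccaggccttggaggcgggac

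In the next 3, from genes of mitosis, capitals mark a CHR-like motif (TTTGAA or TTCGAA), named after the cell cycle genes homology region.
Top2a, chr11:99024200-99024349, minus strand: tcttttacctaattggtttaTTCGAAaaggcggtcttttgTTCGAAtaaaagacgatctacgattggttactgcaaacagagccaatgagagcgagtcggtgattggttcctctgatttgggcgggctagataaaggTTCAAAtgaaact
Mki67, chr7:135716451-135716539, minus strand: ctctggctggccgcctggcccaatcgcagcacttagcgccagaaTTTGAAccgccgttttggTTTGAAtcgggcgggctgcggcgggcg
Kif11, chr19:37376222-37376381, plus strand: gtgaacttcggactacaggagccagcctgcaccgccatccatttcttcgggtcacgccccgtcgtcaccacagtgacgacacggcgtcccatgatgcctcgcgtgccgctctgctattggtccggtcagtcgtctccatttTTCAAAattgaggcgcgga

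Both roles differed in these letters. Over windows from 250 bases before to 50 bases after the start, the E2F-like motif was found in 6 of 15 replication promoters (40.0%), in 1 of 20 mitotic promoters (5.0%, Cdk1) and in 2.26% of all 32851 promoters. The CHR-like motif was found in 3 of 15 replication promoters (20.0%), in 16 of 20 mitotic promoters (80%) and in 19.2% of all promoters. A CCAAT box, the binding sequence of NF-Y, was in 11 replication promoters (73.3%) and 17 mitotic promoters (85.0%), against 37.4% of all. The letters TTCNNNGAA, the form of a STAT5 site, were in 2 replication promoters (Mcm5 and Cdc45) and 0 mitotic ones, against 8.3% of all. E2F-like and CHR-like matches overlapped in 0 cases. These matches are descriptions of sequence and do not show binding.

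The libraries had an estimated 29.5 to 43.2 M mapped reads, a median of 36.5 M, and correlated across genes within groups at 0.963 to 0.989. Of the markers that name the cells, Ly6c2 was at 953 to 1762 RPKM and Ccr2 at 172 to 584 RPKM on day 0, and liver markers summed to at most 0.079 RPKM in any library. Several libraries stood apart in the cycle genes. Replicate 3 of DKI day 6 had the lowest value of its group in 25 of 25 mitotic members, at a median of 0.0696 times the mean of the other 2 libraries, and in 17 of 18 replication members, at 0.270 times. Replicate 1 of DKI day 3 was lowest in its group in all of these 43 members (0.261 times for mitotic and 0.417 times for replication members), as was replicate 3 of WT day 3 (0.449 times and 0.433 times). On day 0 replicate 3 of both genotypes had the highest value in 25 of 25 mitotic members, at 1.72 times the mean of the others in WT and 1.62 times in DKI, while replication members differed less, at 1.21 and 1.19 times.

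**Figure D1:**
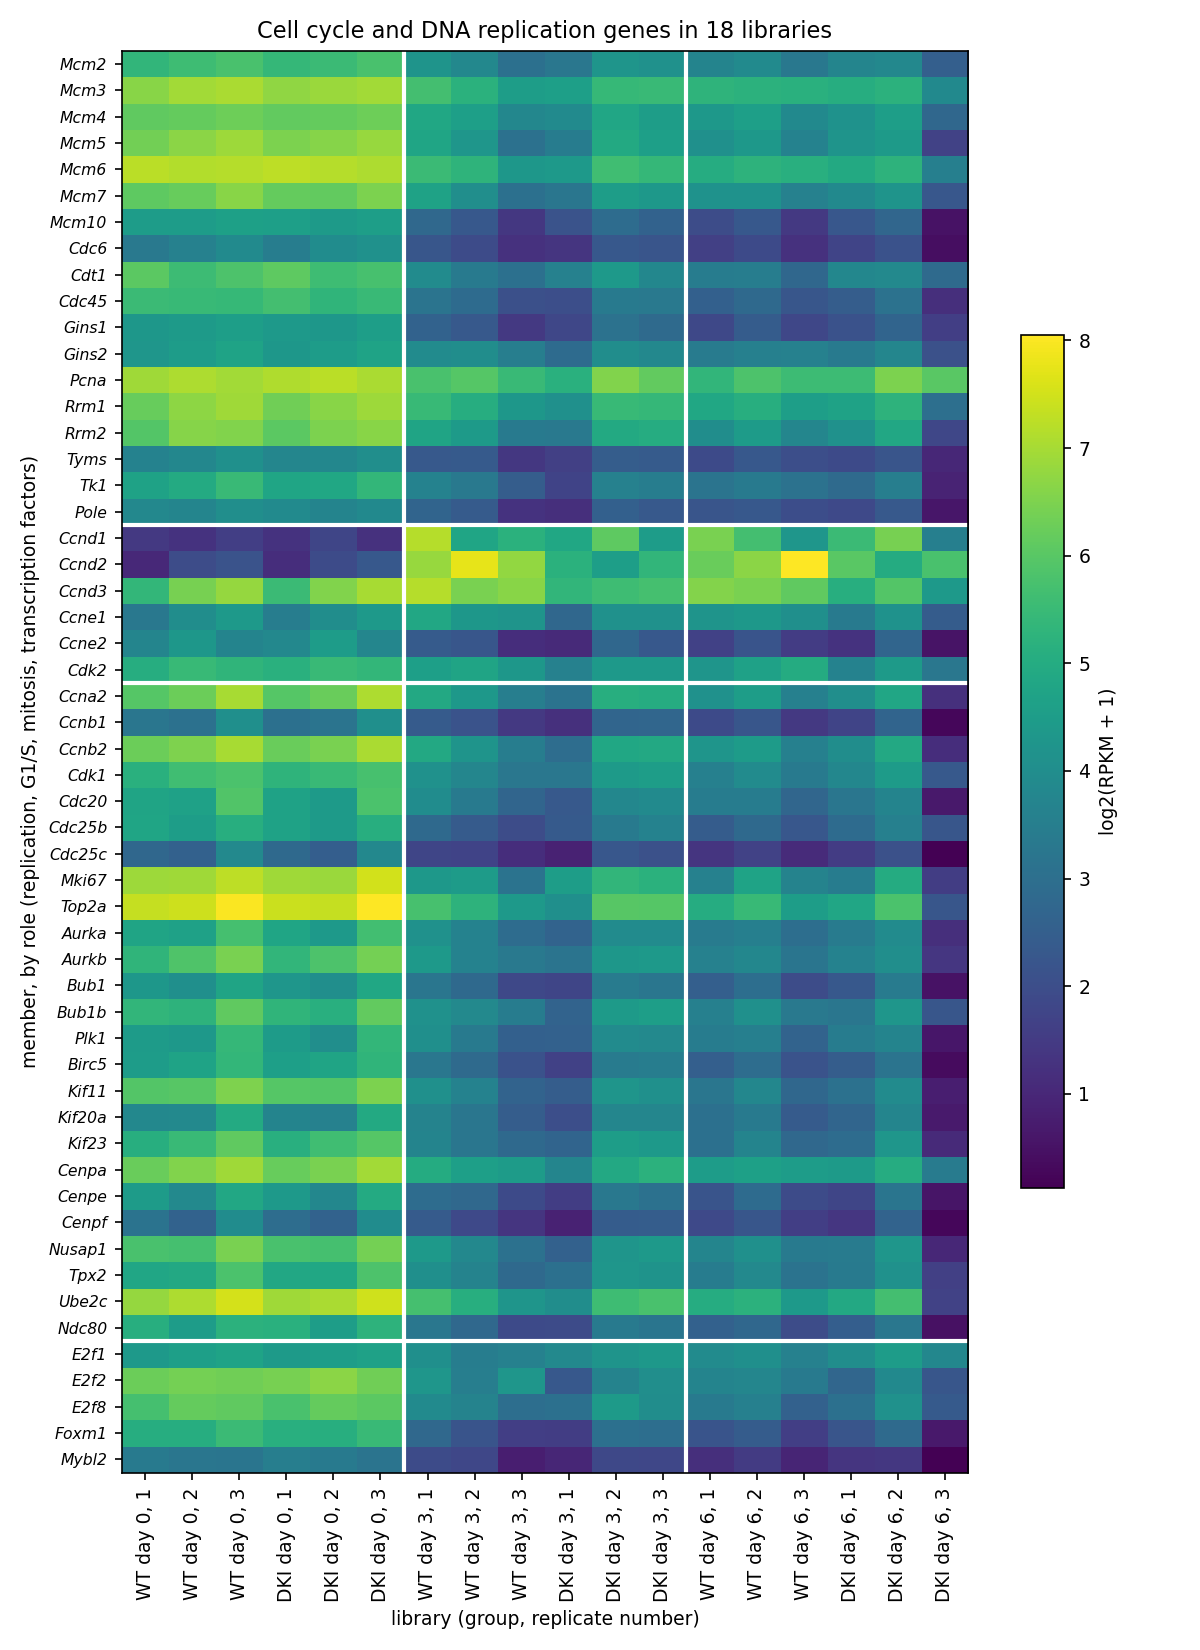
Heat map of log2(RPKM + 1) of the 54 members in the 18 libraries, with genes in rows ordered by role and libraries in columns by group and replicate number. Replication and mitotic rows are brightest in the 6 day 0 libraries and mostly darkest in replicate 3 of DKI day 6, while Ccnd1 and Ccnd2 are dark on day 0 and bright in culture.

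The first question was how the cycle genes change when monocytes are placed in GM-CSF. In WT cells 49 of the 54 members fell between day 0 and day 3, 2 rose and 3 did not pass the test, against 22.8% of all 9938 genes tested that fell and 20.3% that rose. Every replication gene fell (18 of 18, median log2 fold change -1.89), as did 24 of 25 mitotic genes (median -1.87) and 5 of 5 transcription factors (median -2.31), while the median of all genes was -0.05. On the RPKM scale, the median replication gene kept 24.2% of its day 0 mean on day 3 and the median mitotic gene 24.4%. The 2 that rose were the D-type cyclins Ccnd1 and Ccnd2.

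In DKI cells most members fell as well. Here 42 of 54 members fell, 2 rose and 10 did not pass, against 21.1% of 9922 genes that fell and 13.1% that rose. The falls took in 17 of 18 replication genes (median -1.86), 19 of 25 mitotic genes (median -1.69) and 4 of 5 transcription factors (median -2.18), with a median of -0.16 over all genes. Day 3 means were at a median of 26.4% of day 0 for replication genes and 30.5% for mitotic genes. The DKI count rested on replicates 2 and 3 of DKI day 0: without them in turn it was 25 and 26 members called in place of 44.

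Markers of granulocyte progenitors also came down in culture. The 7 genes of that list, led by Prtn3, summed to 775 to 1515 RPKM on day 0 and to 3.52 to 134 RPKM in culture, with 0 of the 7 at 0 in all libraries of a group. From day 0 to day 3, 6 of the 7 were called lower in WT and 4 in DKI, where Cebpe, a factor of granulocyte maturation, had a log2 fold change of -0.03 (adjusted p = 0.915). The 8 neutrophil genes did not move in 1 direction, at sums of 1269 to 4817 RPKM on day 0 and 281 to 4835 RPKM on day 3 over both genotypes. In these bulk samples, fewer dividing cells and less RNA per cell cannot be told apart, and the part of such progenitors in the fall of the cycle genes was not tested.

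Among the replication genes, Cdc45, a part of the CMG helicase that unwinds DNA, fell the most. Its RPKM was 45.4, 42.7 and 42.2 in the WT day 0 libraries and 49.9, 38.7 and 44.2 in the DKI ones. On day 3 it was 8.10, 6.46 and 3.13 in WT and 3.07, 9.54 and 9.09 in DKI. The day 0 and day 3 values did not overlap in either genotype, which held for 52 of 54 members in WT and 51 of 54 in DKI, against 61.0% and 55.2% of all genes tested. The log2 fold change was -2.76 (SE 0.29, adjusted p = 0.000564) in WT and -2.57 (SE 0.38, adjusted p = 0.00476) in DKI.

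Mcm5 is one of the 6 subunits of the MCM ring that loads onto origins of replication. It was at 82.0, 101 and 118 RPKM in WT and 89.1, 97.0 and 113 RPKM in DKI on day 0. By day 3 it had come down to 26.4, 18.6 and 7.40 RPKM in WT and to 9.97, 29.9 and 23.4 RPKM in DKI. Again the days were apart in both genotypes, with log2 fold changes of -2.60 (SE 0.42, adjusted p = 0.0028) and -2.31 (SE 0.38, adjusted p = 0.00672). Mcm6, whose promoter is printed above, had log2 fold changes of -2.13 in WT (SE 0.30, adjusted p = 0.00175) and -2.02 in DKI (SE 0.33, adjusted p = 0.00623). All 6 subunits of the ring fell in both genotypes. Mcm6 had the highest mean of the replication genes on day 0, at 143 RPKM in either genotype.

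Smaller fold changes were seen for Pcna, the sliding clamp that also serves DNA repair, and Gins2, a helicase subunit. Pcna was at 121, 135 and 123 RPKM in WT on day 0 and still at 53.9, 60.6 and 44.4 RPKM on day 3, a log2 fold change of -1.25 (SE 0.16, adjusted p = 0.00114). In DKI the log2 fold change was -1.18 (SE 0.36, adjusted p = 0.0424), from 138, 149 and 130.0 RPKM to 34.6, 93.2 and 69.4 RPKM. Pcna was the most abundant replication gene of the list on days 3 and 6, a place that Mcm6 held on day 0. Gins2 changed by -0.67 in WT (adjusted p = 0.0246) and by -0.93 in DKI, the one replication gene that did not pass there (adjusted p = 0.0564).

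Among the mitotic genes, Mki67, which encodes the proliferation antigen Ki-67, was at 118, 119 and 151 RPKM in WT and 119, 116 and 179.9 RPKM in DKI on day 0. It reached 19.5, 21.3 and 7.90 RPKM in WT on day 3 and 22.4, 39.6 and 35.1 RPKM in DKI. All day 3 values lay below all day 0 values, and every DKI value of day 3 lay above every WT value. The log2 fold change over time was -3.02 (SE 0.35, adjusted p = 0.000868) in WT and -2.07 (SE 0.28, adjusted p = 0.00386) in DKI. The day 3 difference between genotypes was 1.03 on the log2 scale (SE 0.40) and did not pass the test (adjusted p = 0.168).

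Kif11, the motor that pushes the spindle poles apart, was at 59.8, 62.0 and 90.7 RPKM in WT on day 0, then at 16.1, 11.6 and 5.21 RPKM on day 3. In DKI it went from 60.7, 59.5 and 88.1 RPKM to 4.47, 18.02 and 16.3 RPKM. The change was -2.68 in WT (SE 0.38, adjusted p = 0.0017) and -2.51 in DKI (SE 0.49, adjusted p = 0.0106) on the log2 scale. The lowest DKI value of day 3 was again that of replicate 1.

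Ccnb2 is a B-type cyclin that partners Cdk1 at the entry to mitosis. Its RPKM was 75.7, 90.2 and 128 in WT and 74.0, 87.1 and 129.9 in DKI on day 0, and 29.0, 17.5 and 10.1 in WT and 6.83, 27.9 and 28.7 in DKI on day 3. Days did not overlap, at log2 fold changes of -2.40 (SE 0.37, adjusted p = 0.0025) and -2.33 (SE 0.54, adjusted p = 0.0183). The DKI fall did not pass without replicate 2 (adjusted p = 0.0564) or replicate 3 (adjusted p = 0.0611) of DKI day 0. Top2a, the topoisomerase that separates chromosomes and the most abundant mitotic member on each day, was at 163, 172 and 254 RPKM in WT on day 0 and 52.9, 37.1 and 19.7 RPKM on day 3.

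Kif20a, a kinesin of cytokinesis, did not pass in either genotype. In WT it measured 13.1, 13.4 and 30.2 RPKM before culture and 11.8, 8.46 and 4.55 RPKM after 3 days, with day 0 values that spread more than those of day 3. The log2 fold change was -1.08 (SE 0.41, adjusted p = 0.0649) in WT and -0.90 (SE 0.57, adjusted p = 0.25) in DKI. The other mitotic genes that did not pass in DKI were Ccnb1, Cdc25c, Bub1b, Plk1 and Cenpf, all with negative fold changes.

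All 5 transcription factors fell in WT and 4 of them in DKI. Foxm1, which switches on mitotic genes, was at 32.3, 32.3 and 45.6 RPKM in WT and at 33.8, 33.0 and 44.2 RPKM in DKI on day 0. On day 3 its levels were 5.98, 3.51 and 1.99 RPKM in WT and 1.93, 7.30 and 7.01 RPKM in DKI. The log2 fold changes were -3.03 (SE 0.32, adjusted p = 0.000584) and -2.70 (SE 0.42, adjusted p = 0.00551), with no overlap between days.

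E2f2, an activating E2F, was at 76.5, 83.1 and 79.0 RPKM in WT and 84.7, 102 and 79.9 RPKM in DKI on day 0. It was at 18.3, 10.4 and 18.6 RPKM in WT and 3.98, 11.8 and 15.4 RPKM in DKI on day 3, again without overlap. The log2 fold change was -2.31 in WT (SE 0.23, adjusted p = 0.00048) and -3.14 in DKI (SE 0.43, adjusted p = 0.00392). E2f8, a repressor among the E2Fs, fell from 51.8, 71.6 and 67.5 RPKM to 14.0, 11.7 and 7.001 RPKM in WT, a log2 fold change of -2.48 (SE 0.26, adjusted p = 0.000596). In DKI it fell from 54.02, 71.2 and 65.7 RPKM to 7.23, 20.5 and 15.1 RPKM, by 2.18 on the log2 scale (SE 0.36, adjusted p = 0.00644).

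E2f1, another activating E2F, had smaller fold changes. It was at 19.8, 23.4 and 25.2 RPKM in WT on day 0, then at 15.8, 10.2 and 11.2 RPKM on day 3, a log2 fold change of -0.84 (adjusted p = 0.0114). In DKI it went from 20.9, 22.3 and 24.1 RPKM to 13.5, 17.8 and 19.5 RPKM, a log2 fold change of -0.40 that did not pass (adjusted p = 0.129). E2f1 was the most abundant transcription factor of the list in both genotypes on day 6, where E2f2 had been on day 0.

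**Figure D2:**
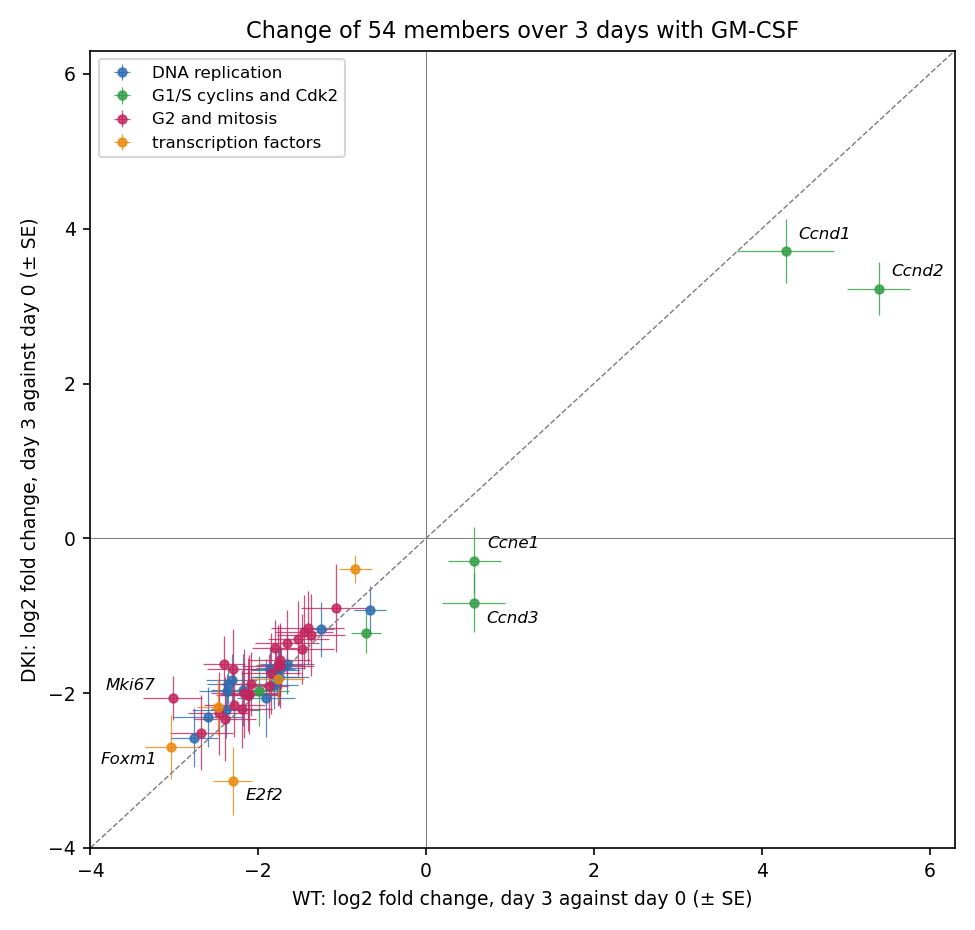
Log2 fold change from day 0 to day 3 in DKI (vertical axis) against that in WT (horizontal axis), 1 point per gene for the 54 members, coloured by role, with bars of 1 SE and a dashed line where both are equal. Replication, mitotic and transcription factor genes lie below 0 on both axes, and Ccnd1 and Ccnd2 lie above 3 on both.

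The G1 group split. Ccne2, an E-type cyclin that drives entry into S phase with Cdk2, fell with the replication genes, by 1.99 on the log2 scale in WT (adjusted p = 0.00405) and by 1.97 in DKI (adjusted p = 0.0178). Its paralog Ccne1 did not pass in either genotype, with log2 fold changes of 0.58 in WT (adjusted p = 0.170) and -0.29 in DKI (adjusted p = 0.625). Cdk2 changed by -0.72 (adjusted p = 0.0148) in WT and by -1.22 (adjusted p = 0.0132) in DKI.

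Ccnd1 encodes cyclin D1, on chr7:144929931-144939831 (GRCm38.p6). It was at 1.72, 1.41 and 2.03 RPKM in WT and 1.44, 2.40 and 1.38 RPKM in DKI on day 0. With GM-CSF it reached 144, 26.8 and 35.6 RPKM in WT on day 3 and 27.9, 66.7 and 21.6 RPKM in DKI. The mean was 39.9 times that of day 0 in WT and 22.3 times in DKI, and the log2 fold changes were 4.28 (SE 0.58, adjusted p = 0.00145) and 3.71 (SE 0.42, adjusted p = 0.00216). The size of these ratios leaned on 1 library each, being 18.1 times without replicate 1 of WT day 3 and 14.2 times without replicate 2 of DKI day 3. The genotypes overlapped on day 3 and on day 6, when values were 86.5, 50.7 and 18.4 RPKM in WT and 44.9, 84.7 and 10.7 RPKM in DKI. No genotype difference was called on either day (log2 fold change -0.58, adjusted p = 0.638, and -0.31, adjusted p = 0.831).

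Ccnd2 encodes cyclin D2, on chr6:127125162-127152188. It started at 1.04, 2.90 and 3.47 RPKM in WT and at 1.26, 2.85 and 3.92 RPKM in DKI. By day 3 of GM-CSF it had reached 112, 213 and 108 RPKM in WT and 35.5, 22.6 and 39.6 RPKM in DKI. The rise was 58.4 times in WT (log2 fold change 5.39, SE 0.38, adjusted p = 0.000128) and 12.2 times in DKI (log2 fold change 3.22, SE 0.34, adjusted p = 0.00187). The lowest WT value of day 3 was above the highest DKI value.

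Ccnd3 encodes cyclin D3, on chr17:47505051-47599689. It was the D-type cyclin of the untreated cells, at 40.4, 84.3 and 109 RPKM in WT and 45.3, 92.8 and 129 RPKM in DKI. On day 3 it was at 142, 87.2 and 99.3 RPKM in WT and at 39.2, 46.6 and 51.5 RPKM in DKI, so that the genotypes were apart although neither had changed beyond the test from day 0 (log2 fold change 0.57 in WT, adjusted p = 0.247, and -0.83 in DKI, adjusted p = 0.129). Of the summed RPKM of all D-type cyclins, Ccnd3 made up 93.6% to 96.1% on day 0 and 19.5% to 45.7% in culture.

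**Figure D3:**
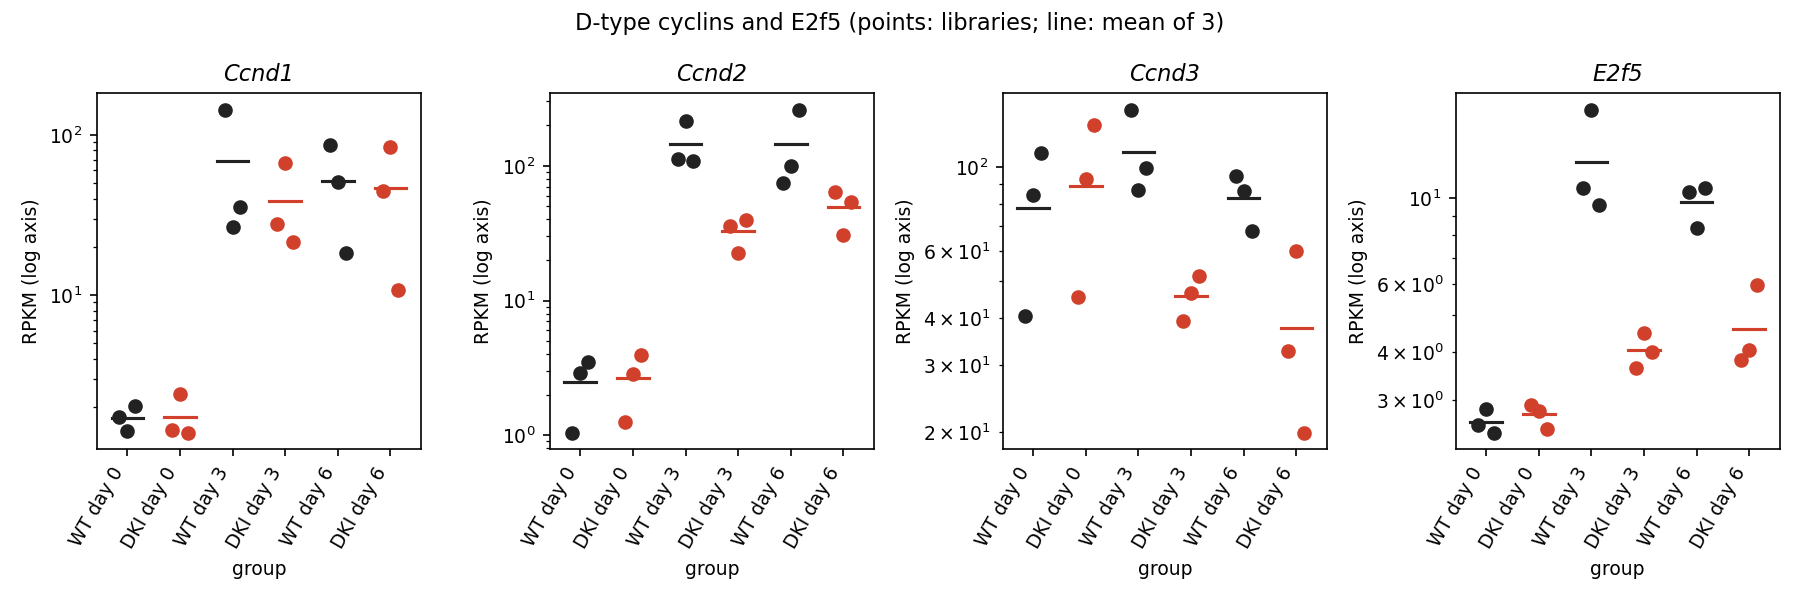
RPKM on a log axis of Ccnd1, Ccnd2, Ccnd3 and E2f5, 1 panel per gene with its own scale, for WT (black) and DKI (red) on days 0, 3 and 6; points are libraries and lines the mean of 3. Ccnd1 and Ccnd2 sit below 4 RPKM on day 0 and above 10 RPKM in culture, and the DKI points of Ccnd2, Ccnd3 and E2f5 lie below the WT points on days 3 and 6.

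The sum of the D-type cyclins went up in WT and overlapped between the days in DKI. In WT it was 43.2, 88.6 and 114 RPKM on day 0 against 397, 327 and 243 RPKM on day 3. In DKI it was 48.0, 98.1 and 134 RPKM on day 0 against 103, 136 and 113 RPKM on day 3. Set against the mean RPKM of Mcm2 to Mcm7 in the same library, the sum was 0.516 to 1.37 times on day 0. On day 3 it was 12.4, 13.6 and 19.2 times in WT and 7.27, 4.33 and 4.08 times in DKI. The ratio was higher in every cultured library than in every untreated one, and higher in each WT library than in each DKI library of day 3. On day 6 the genotypes overlapped, at 11.4, 9.72 and 18.4 times in WT and 6.91, 7.12 and 12.3 times in DKI. The highest DKI ratio was that of replicate 3, where the cyclin sum was 84.1 RPKM and Mcm5 was at 2.22 RPKM. The cyclin sums themselves did not overlap on day 6, at 237 to 347 RPKM in WT and 84.1 to 175 RPKM in DKI.

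The second question was whether the lack of STAT5 tetramers changed the cycle genes. Before stimulation it did not do so detectably. On day 0, 0 of 53 fitted members were called, as were 0 of 9179 genes tested (0%), and 0 members were at an unadjusted p under 0.05, against 44 of all genes. That fit left out the pairing of same-numbered libraries, which correlated at 0.69 or more. With the replicate block 352 of all genes were at an unadjusted p under 0.05, and 0 members and 0 genes were called. Log2 differences of DKI against WT ranged from -0.13 to 0.23 with a median of -0.0016, and for 0 of 54 members were the genotypes apart, as they were for 1.03% of all genes tested. Mki67 and Cdc45 illustrate this in the values given above.

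On day 3, 2 of 54 members were lower in DKI, Ccnd2 and Ccnd3, and 0 were higher, against 4.21% lower and 3.21% higher of the 9740 genes tested. The genotypes were apart for 4 of 54 members, Ccnd2, Ccnd3, Ccne1 and Mki67, a smaller share than the 36.3% of all genes tested. Ccnd2 in DKI was at 22.5% of the WT mean, a log2 fold change of -2.08 (SE 0.34, adjusted p = 0.0214). Ccnd3 was at 41.9% of WT, a log2 fold change of -1.22 (SE 0.23, adjusted p = 0.0301). Both were lower in DKI in 3 of 3 same-numbered pairs. With the replicate number as a block the adjusted p was 0.0623 for Ccnd2 and 0.0696 for Ccnd3. Leaving out any WT library of day 3 lost both calls, with adjusted p of 0.0508 to 0.0631 for Ccnd2 and 0.0635 to 0.0886 for Ccnd3. Leaving out a DKI library kept the call of Ccnd2 (adjusted p = 0.0339 to 0.0494) but lost that of Ccnd3 without replicate 2 (adjusted p = 0.0731) or replicate 3 (adjusted p = 0.0579), so that Ccnd3 passed in 1 of the 6 cases.

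Marker lists of cell types also differed in their sums between genotypes on day 3, and 6 of the 10 lists did not overlap. Lyz2, a lysozyme gene of monocytes, macrophages and neutrophils, was at 2321, 732 and 2630 RPKM in WT and 12766, 7417 and 18907 RPKM in DKI (log2 fold change 2.88, adjusted p = 0.0468). It dominated the sum of the 8 monocyte genes, which was 1823 to 4145 RPKM in WT and 9246 to 21173 RPKM in DKI. Without Lyz2 the sum was still higher in DKI, at 1091 to 1636 RPKM in WT and 1828 to 3041 RPKM in DKI. The means of 6 of the 8 genes were higher in DKI, and Lyz2, Ly6c2, Csf1r and Itgam were so without overlap, although no gene other than Lyz2 was called. The 7 stem and progenitor genes summed to 18.4 to 21.6 RPKM in WT and 4.37 to 14.3 RPKM in DKI, led by Cd34. Cd34 itself overlapped, at 18.2, 15.3 and 11.1 RPKM in WT and 0.815, 11.1 and 9.43 RPKM in DKI (log2 fold change -1.35, adjusted p = 0.290), and 0 genes of that list were called. The means of 4 of the 7 genes were lower in DKI and those of 3 higher, with Kit lower and Myct1 higher without overlap. Mecom was at 0 in all DKI libraries of that day and near 0 in WT.

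The other 4 lists without overlap were each led by 1 gene. The erythroid list summed to 33.1 to 184 RPKM in WT and 5.03 to 14.6 RPKM in DKI, nearly all of it Car2, a carbonic anhydrase, while 5 of its 8 genes, the haemoglobin genes among them, were listed at 0 in all libraries of both genotypes. The basophil and mast cell list, led by Gata2, was at 31.6 to 47.9 RPKM in WT and 13.4 to 31.1 RPKM in DKI. Higher in DKI were the plasmacytoid list, at 84.1 to 126 RPKM in WT and 127 to 1247 RPKM in DKI and led by Bst2, and the B lineage list, at 0.468 to 0.636 RPKM and 1.51 to 7.25 RPKM and led by Cd79b, although the means of 4 of its 10 genes were higher in DKI and those of 5 lower. No gene of these 4 lists was called. The granulocyte progenitor, neutrophil and T and NK cell lists overlapped, and the liver list was at 0. The granulocyte progenitor list summed to 3.52 to 74.2 RPKM in WT and 27.5 to 134 RPKM in DKI. Although these sums overlapped, the means of 7 of its 7 genes were higher in DKI. Prtn3 and Cebpe were so without overlap, 2 of 7 against 36.3% of all genes tested that were apart either way. The part of all these genes in the lower Ccnd2 and Ccnd3 of DKI was not tested.

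On day 6 Ccnd2 and Ccnd3 were again apart between genotypes, though neither passed. Ccnd2 was at 74.4, 100.2 and 261 RPKM in WT and 63.8, 30.8 and 53.4 RPKM in DKI, a log2 fold change of -1.39 (SE 0.51, adjusted p = 0.135). Ccnd3 was at 94.9, 86.3 and 67.7 RPKM in WT and 32.8, 59.9 and 19.9 RPKM in DKI, a log2 fold change of -1.25 (SE 0.39, adjusted p = 0.0953). These were the only 2 of 54 members whose genotypes were apart on day 6, against 37.2% of all genes tested. The summed D-type cyclins were 256, 237 and 347 RPKM in WT and 141, 175 and 84.1 RPKM in DKI.

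The change of the genotype difference from day 0 to day 3 was tested as an interaction, which called 0 of 54 members and 2.91% of 10212 genes. Ccnd2 had an interaction of -2.17 on the log2 scale (adjusted p = 0.0685) and Ccnd3 one of -1.40 (adjusted p = 0.271). With the replicate block both were called, at adjusted p of 0.0369 and 0.0275, in a fit that called 10.2% of all genes, so 2 of 54 members is a smaller share. These comparisons share the day 3 libraries and are not independent of each other.

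Of the other G1 members, Ccne1 and Cdk2 had negative differences that did not pass. Ccne1 was at 28.2, 19.0 and 17.7 RPKM in WT and 5.77, 16.7 and 16.6 RPKM in DKI on day 3, groups that did not overlap (log2 fold change -0.79, SE 0.41, adjusted p = 0.280). Cdk2 on day 6 was at 18.1, 24.1 and 31.0 RPKM in WT and 11.4, 20.7 and 8.65 RPKM in DKI (log2 fold change -0.85, SE 0.34, adjusted p = 0.161), with overlap. In same-numbered pairs Ccne1 was lower in DKI in 3 of 3 on day 3 and on day 6. Cdk2 was lower in 2 of 3 pairs on day 3 and in 3 of 3 on day 6.

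Replication and mitotic genes, in contrast, were not called between genotypes. On day 3 the median log2 difference was 0.14 for both roles, with 42 of 54 members positive, while the median of all genes was -0.11. The sign changed with the libraries used. The replication and mitotic medians were -0.20 and -0.21 without replicate 3 of WT, -0.06 and -0.13 without replicate 2 of DKI and -0.02 and -0.11 without replicate 3 of DKI. Without each of the other 3 libraries in turn they were positive, at up to 0.48 and 0.68. With replicates 2 and 3 of both genotypes only, a setting chosen after seeing the data, they were 0.72 and 0.94, and 1 member was called higher in DKI, Kif23 (log2 fold change 1.42, adjusted p = 0.0392), against 1.68% of all genes. Over all libraries of day 3 the genotypes overlapped for all of these genes other than Mki67, while 36.3% of all genes tested were apart.

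On day 6, 0 of 52 fitted members were called by limma, against 4.82% lower and 2.72% higher of 9842 genes. Ccnd2, Ccnd3 and Cdk2 were the 3 at an unadjusted p under 0.05, as were 2778 of all 9842 genes, a larger share. Log2 differences were negative for 47 of the 52, at a median of -0.45 for replication and -0.50 for mitotic genes, with -0.17 over all genes. These signs rested on 1 library. Without replicate 3 of DKI day 6 the median was 0.14 for replication genes and 0.31 for mitotic genes, positive for 13 of 18 and 25 of 25, and again 0 were called. Without replicate 2 of DKI day 6 instead, 4 members were called lower, against 6.66% of all genes: Ccnd3 (log2 fold change -1.64, adjusted p = 0.0277), Ccne1 (-1.33, adjusted p = 0.0479), Cdk2 (-1.18, adjusted p = 0.0488) and E2f2 (-1.13, adjusted p = 0.0372).

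The spread among DKI libraries of day 6 is plain in Top2a, which was at 31.7, 42.9 and 22.1 RPKM in WT and at 27.3, 54.3 and 3.69 RPKM in DKI. Kif11 was at 8.39, 12.8 and 5.87 RPKM in WT and at 7.37, 14.5 and 0.725 RPKM in DKI on that day. In that group replicate 2 had the highest value for 25 of 25 mitotic members and replicate 3 the lowest. The median coefficient of variation of mitotic genes was 89.6% in DKI on day 6, against 31.9% in WT, 57.0% and 43.8% in DKI and WT on day 3 and 30.7% and 36% on day 0.

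**Figure D4:**
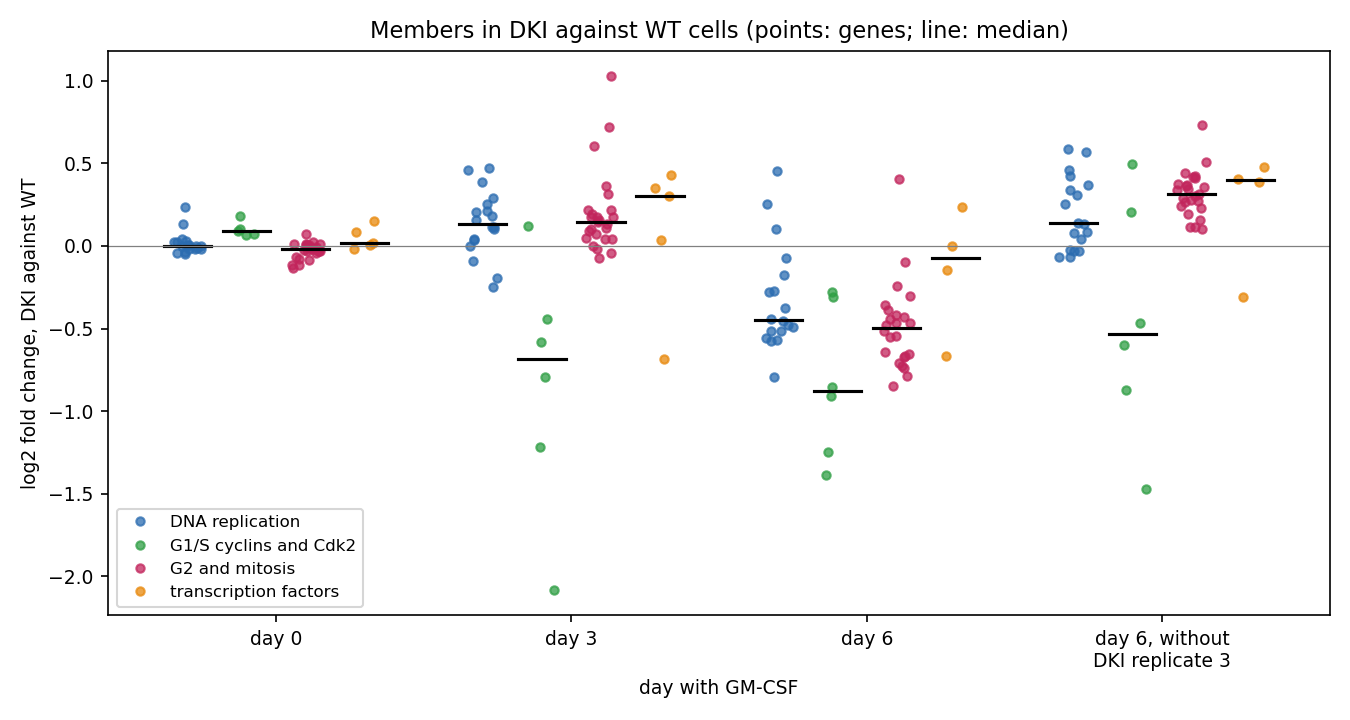
Log2 fold change of DKI against WT, 1 point per fitted member coloured by role, with a line at the median of the role, on days 0, 3 and 6 and on day 6 without replicate 3 of DKI. Day 0 points lie close to 0, a G1 gene (Ccnd2) is lowest on day 3, and the mitotic median moves from -0.50 on day 6 to 0.31 without that library.

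The third question was whether the genes changed further between day 3 and day 6. In WT 0 of 53 and in DKI 0 of 54 members were called by limma, as were 0 of 9613 and 0 of 9540 genes tested (0% each), with 722 and 93 of those genes at an unadjusted p under 0.05. With the replicate block these were 1221 and 471 genes, and again 0 were called. For 0 of 54 members were the days apart in either genotype, against 14.3% of all genes tested in WT and 4.43% in DKI. The median log2 fold change of the members was -0.13 in WT and -0.60 in DKI. In DKI the mitotic median was -0.80, negative in 25 of 25 genes, and 0.05 without replicate 3 of DKI day 6. The genotype effect of day 6 against that of day 3 was called for 0 of 54 members and 0 of 9985 genes (0%, with 89 at an unadjusted p under 0.05).

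The genes with the largest falls stayed low on day 6. Cdc45 was at 4.81, 6.12 and 3.75 RPKM in WT and 4.55, 7.68 and 1.31 RPKM in DKI, and Mcm5 at 16.2, 19.2 and 11.52 RPKM in WT and 17.8, 20.6 and 2.22 RPKM in DKI. Mki67 stood at 11.2, 25.2 and 11.6 RPKM in WT and 9.93, 30.8 and 1.98 RPKM in DKI, with Ccnb2 at 17.9, 21.3 and 10.9 RPKM and 15.1, 29.3 and 1.22 RPKM. In each of these the lowest value was that of replicate 3 of DKI and the genotypes overlapped. Of the transcription factors, Foxm1 was at 3.503, 4.39 and 1.998 RPKM in WT and 3.67, 6.24 and 0.582 RPKM in DKI. E2f2 was at 11.9, 12.4 and 9.56 RPKM in WT and 5.67, 13.6 and 3.71 RPKM in DKI, and E2f8 at 9.43, 10.9 and 4.98 RPKM and 7.24, 16.5 and 4.16 RPKM. For these as well the genotypes overlapped.

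Replication and mitotic genes were also compared with each other within each library, as the mean log2(RPKM + 1) of the 25 mitotic genes minus that of the 18 replication genes. On day 0 this difference was -0.31, -0.46 and 0.13 in WT and -0.41, -0.50 and 0.15 in DKI. Replicate 3 was the only positive library in each genotype. On day 3 it was -0.16, -0.29 and -0.17 in WT and -0.42, -0.11 and 0.09 in DKI. On day 6 it was -0.24, -0.11 and -0.41 in WT and -0.35, 0.08 and -0.96 in DKI. The mean difference in WT was -0.21 ± 0.30 (SD, n = 3) on day 0 and -0.21 ± 0.07 on day 3, and in DKI -0.26 ± 0.36 and -0.15 ± 0.26, so the days did not differ beyond the spread between libraries. Replicate 3 of DKI day 6 had the most negative difference of all 18 libraries.

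**Figure D5:**
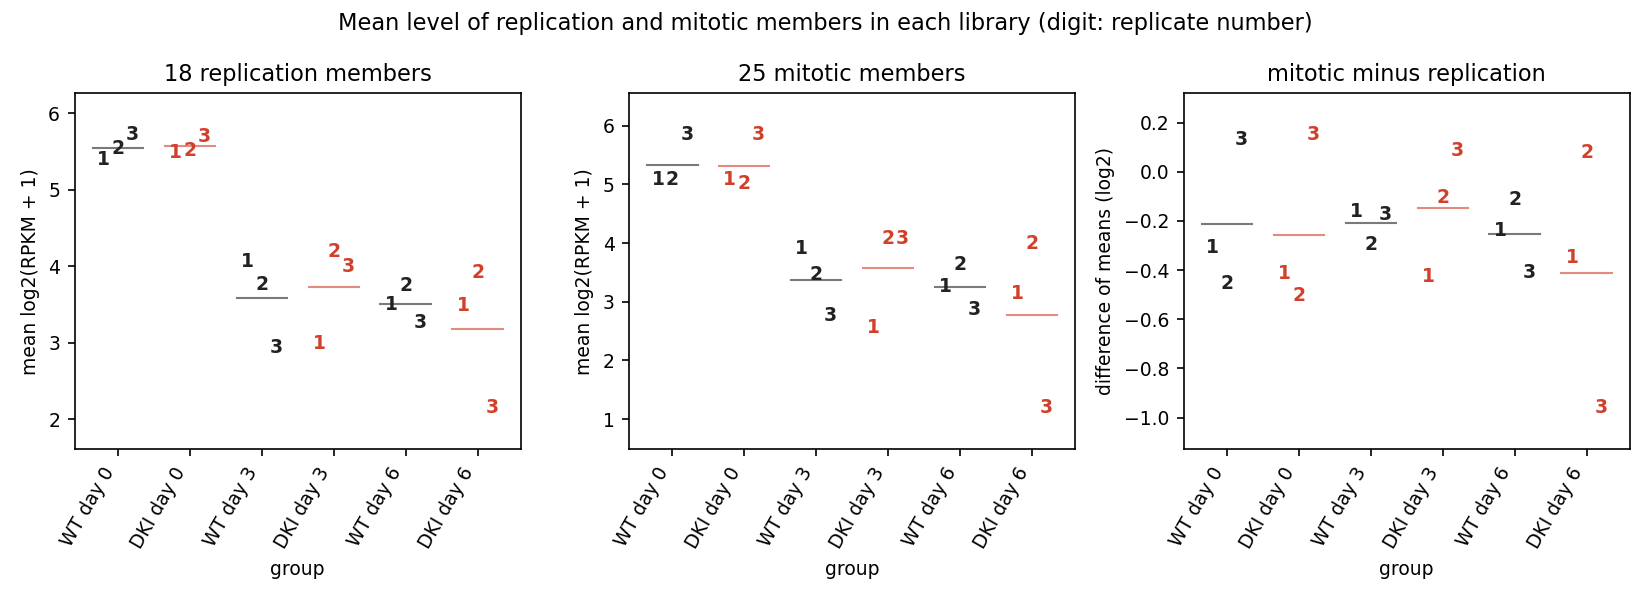
Mean log2(RPKM + 1) of the 18 replication genes (left panel) and of the 25 mitotic genes (middle panel), and their difference (right panel), in each library of the 6 groups on the horizontal axis, WT in black and DKI in red. Digits are replicate numbers and lines group means; cultured libraries lie below all day 0 libraries in the left and middle panels, and replicate 3 of DKI day 6 is the lowest in all 3.

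Further genes of the same pathways were read from 4 lists. Of all genes tested, 22.8% fell and 20.3% rose from day 0 to day 3 in WT, and 21.1% fell and 13.1% rose in DKI. Of 29 other replication genes in WT, 25 fell from day 0 to day 3 and 0 rose, and in DKI 26 fell. Of 39 other mitosis genes, 38 fell in WT and 35 in DKI, and 0 rose in either. The replication genes that did not pass in WT were Gins4, Pold2, Fen1 and Ung, of which Fen1 and Ung also serve DNA repair. The median log2 fold change in WT was -1.45 for the first list and -1.91 for the second.

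Genes that hold back the cycle mostly fell where they were called. Among 14 fitted genes of CDK inhibitors, pocket proteins and related brakes, 7 fell and 1 rose in each genotype. Over all genes, 22.8% fell and 20.3% rose in WT, and 21.1% fell and 13.1% rose in DKI. Cdkn2c and Cdkn2d, inhibitors of Cdk4 and Cdk6, fell by 2.10 and 2.28 on the log2 scale in WT (adjusted p = 0.00518 and 0.000301). Cdkn1b, which encodes p27, fell by 1.08 (adjusted p = 0.00666) and Rbl1, a pocket protein that is itself an E2F target, by 1.56 (adjusted p = 0.000603). Ccng1, a p53-responsive cyclin, was the gene that rose, by 2.42 in WT and 1.98 in DKI on the log2 scale. Cdkn1a, which encodes p21, did not pass in either genotype (log2 fold change 0.82 in WT and -0.50 in DKI).

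Of 19 fitted genes of a mixed list, 12 fell and 2 rose in WT, and 9 fell and 0 rose in DKI. The list held G1 kinases and activators, and also repressor E2Fs such as E2f5, Lin genes, Wee1 and Chek1. The shares of all genes that fell and rose were 22.8% and 20.3% in WT and 21.1% and 13.1% in DKI. The genes that rose in WT were E2f5, a repressor E2F that pairs with pocket proteins (log2 fold change 1.84, adjusted p = 0.00101), and Myc (1.05, adjusted p = 0.0327). E2f5 was also the one gene of this list called between genotypes, 1 of 17 fitted on day 3 and on day 6. Of all genes tested, 4.21% were called lower on day 3 and 4.82% on day 6. It was at 2.60, 2.85 and 2.48 RPKM in WT and 2.93, 2.82 and 2.54 RPKM in DKI on day 0. It rose to 10.6, 16.9 and 9.58 RPKM in WT on day 3 and stood at 3.65, 4.47 and 4.002 RPKM in DKI, with 10.4, 8.34 and 10.6 RPKM in WT and 3.81, 4.04 and 5.95 RPKM in DKI on day 6.

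The E2f5 groups were apart on both days of culture. The genotype difference was -1.37 on the log2 scale on day 3 (SE 0.22, adjusted p = 0.0219, and 0.0331 with the replicate block) and -0.96 on day 6 (SE 0.19, adjusted p = 0.0398, and 0.0419 with the block). With 1 library left out, the adjusted p was 0.0411 to 0.0713 on day 3, over the threshold without replicate 1 or 3 of WT or replicate 3 of DKI, and 0.0578 to 0.144 on day 6, over it in every case. On day 6 Gadd45b, a stress-induced cell cycle inhibitor, was lower in DKI, at 48.0, 47.8 and 72.3 RPKM in WT and at values of 27.1 to 29.97 RPKM in DKI (log2 fold change -0.93, SE 0.20, adjusted p = 0.0433, and 0.0551 with the block). Gins3, a helicase subunit, was lower too, at 5.13, 6.04 and 5.81 RPKM in WT and 2.21, 3.54 and 2.06 RPKM in DKI (log2 fold change -0.91, SE 0.20, adjusted p = 0.0477, and 0.0509 with the block). With 1 library left out, the adjusted p was 0.0629 to 0.115 for Gadd45b and 0.0246 to 0.162 for Gins3, the latter passing only without replicate 2 of DKI. With the block, which called 4.41% of all genes lower on day 6, Cdkn2b, which encodes p15, and Btg1, an antiproliferative gene, were called lower instead of Gadd45b. Cdkn2b was at 3.32, 2.84 and 8.77 RPKM in WT and 0.764, 0.258 and 1.08 RPKM in DKI (log2 fold change -1.71, adjusted p = 0.055, and 0.0385 with the block). Btg1 was at 157, 107 and 275 RPKM in WT and 56.6, 51.9 and 101 RPKM in DKI (log2 fold change -1.31, adjusted p = 0.0953, and 0.0317 with the block). Both genes were apart between genotypes. Without the block, the fitted genes called on day 6 were 1 of 17 on the list of E2f5 and 1 of 15 brakes. They were 1 of 28 other replication genes and 0 of 38 other mitosis genes. Of all genes, 4.82% were called lower and 2.72% higher on that day.

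Marker lists differed between the genotypes on day 6 as well, and 5 of the 10 did not overlap. The granulocyte progenitor list overlapped, at 4.36 to 8.34 RPKM in WT and 4.09 to 110 RPKM in DKI. The means of 7 of its 7 genes were higher in DKI, 0 of them without overlap. The monocyte list summed to 3043 to 4439 RPKM in WT and 10318 to 14431 RPKM in DKI. Lyz2 dominated it, and without Lyz2 the sums were 841 to 1534 RPKM in WT and 1679 to 2195 RPKM in DKI. The means of 5 of the 8 monocyte genes were higher in DKI and those of 3 lower. The B lineage list summed to 0.439 to 1.19 RPKM in WT and 1.54 to 3.77 RPKM in DKI, led by Cd79b. Without Cd79b the genotypes overlapped, at 0.318 to 0.608 RPKM in WT and 0.351 to 0.501 RPKM in DKI. The means of 3 of the 10 B lineage genes were higher in DKI and those of 5 lower. Lower in DKI were the stem and progenitor list, at 24.5 to 28.5 RPKM in WT and 4.65 to 8.85 RPKM in DKI, the erythroid list, at 37.3 to 106 RPKM and 8.07 to 11.8 RPKM, and the basophil and mast cell list, at 36.7 to 126 RPKM and 19.3 to 28.5 RPKM. Nearly all of the erythroid sum was Car2. Without Car2 the genotypes overlapped, at 0.0373 to 0.104 RPKM in WT and 0.0668 to 0.145 RPKM in DKI. Of the 7 stem and progenitor means, 4 were lower in DKI and 3 higher. Of the 6 basophil and mast cell means, 5 were lower and 1 higher. Of the genes on the 5 lists without overlap, Lyz2 was called higher in DKI, and Cd34 and Car2 were called lower. Their part in the day 6 differences of E2f5, Gadd45b and Gins3 was not tested.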

How the data were processed

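RNA-seq was analysed in 18 libraries of 6 groups, with genotype, day and replicate number taken from the sample labels. The authors aligned single-end reads to mm10 with Subread, counted them on RefSeq genes with featureCounts, and deposited RPKM values, 1 column per library; versions, strandedness and the handling of reads shared by near copies were not given in the sources used here. Symbols and positions came from RefSeq GRCm38.p6, in which 20082 identifiers matched and 216 did not.

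RPKM hold no read totals, so depth was approximated from the nonzero values of 1168 receptor genes, scaled by gene length. The most common value in a library, shared by 4 to 13 genes, was taken as 1 read. In the shallowest library, 0.102 RPKM is 3 reads per 1 kb, counting error alone considered. Reads were not recovered and no count test was run.

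RPKM were tested as log2(RPKM + 1) in limma 3.58.1 (R 4.3.3; lmFit, and eBayes with a trend) on the libraries of the groups compared. Genes with a mean above 2 RPKM in at least 1 group entered the fit, and were called at a Benjamini-Hochberg adjusted p under 0.05, over all genes fitted, and a fold change above 1.5. These are the authors' limits with edgeR, without their limit on CPM. Interactions used the 12 libraries of both days. Fold changes on this scale understate those of low genes. The fit was tested on simulated data. Figures and motif searches used Python 3.11.15, numpy 2.4.6, pandas 2.3.3 and matplotlib 3.10.9.

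The members and gene lists were chosen with earlier results of these data known. All 54 members are counted. Values in every library are given for members called between genotypes, for the D-type cyclins and for the 2 largest changes per role and genotype, and further members were added after their values were seen. From the other pathway lists, genes called between genotypes are named, and others as examples. Promoters printed are those of up to 3 members per role with the highest day 0 mean among those whose motif lies between 160 bases upstream and the first annotated transcript start.

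Nothing in the sources states that libraries came from separate animals, beyond 3 independent experiments, so p-values measure the spread between these libraries. Deviations from the group mean correlated between WT and DKI libraries of 1 replicate number (lowest correlation 0.69, 0.16 and 0.34 on days 0, 3 and 6), and between days 3 and 6 within a genotype (lowest 0.12 in WT and 0.32 in DKI). Days 0 and 3 did not (-0.21 to 0.18). The pairing comes from the replicate numbers in the labels. The library names of replicate 1 on days 3 and 6 hold an earlier year than the rest. Alternatives were a pseudocount of 0.1, no filter, a replicate block, median centring of each library, 1 fit of all 18 libraries, and leaving out each library in turn.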

Additional observations from a re-analysis of the deposited data

Results flagged for a closer look

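E2f5, a repressor E2F outside the 54 members, differed in its genotype effect between days. The effect of DKI on day 3 minus that on day 0 was -1.41 on the log2 scale (SE 0.27), tested as an interaction (adjusted p = 0.0199, and 0.00918 with the replicate block). This was 1 call among 19 fitted genes of its list, against 2.91% of all 10212 genes. All 3 WT libraries of day 3 were above all day 0 libraries and above their same-numbered DKI libraries. The call was lost without replicate 1 (adjusted p = 0.0529) or replicate 2 (adjusted p = 0.0591) of DKI day 0. Its cause was not tested.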

How the results depend on the processing

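For DKI against WT on day 3, the 2 members called became 1 with no filter, 1 in a fit of all 18 libraries, 0 with the replicate block and 0 to 2 when 1 library was left out. Same-numbered libraries pair here, so the block value stands beside the result. With replicates 2 and 3 of both genotypes only, an alternative chosen after seeing the data because replicate 1 carries an earlier year in its library names, 1 member was called, higher in DKI: Kif23 (log2 fold change 1.42, adjusted p = 0.0392). Ccnd2 and Ccnd3 were then at adjusted p of 0.068 and 0.0501, and the median was 0.72 for replication and 0.94 for mitotic genes. On day 6 the count was 0 to 4 when 1 library was left out. In the interaction of day 3 against day 0 it was 2 with the replicate block in place of 0, while calls over all 10212 genes went from 297 to 1040. From day 0 to day 3, the DKI count of 44 was 25 to 42 when 1 library was left out, and the WT count of 51 was 45 to 51. The cause of these shifts was not tested, though a fit with fewer libraries has fewer degrees of freedom. Medians over the replication and mitotic genes changed sign in the genotype comparisons when 1 library was left out, on day 3 from 0.14 and 0.14 to -0.20 and -0.21 without replicate 3 of WT, and on day 6 from -0.45 and -0.50 to 0.14 and 0.31 without replicate 3 of DKI. The replicate block changed no other count of members by over 1.5 times. A gene of 1 kb under about 0.102 RPKM rests on 3 reads or fewer at the lowest depth.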
